A study of Mus musculus with 5 samples.

Results

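Mouse salivary gland organoids (mSGOs) that had received 7 Gy of protons were compared with mSGOs that had received the same dose of photons. Both were irradiated on day 5 and collected on day 7, and each condition was 1 single-cell RNA-seq library. A barcode was kept if it held at least 1000 unique molecular identifiers (UMIs), if genes of the mitochondrial genome took at most 5% of its UMIs, and if Malat1 took at least 1%. Malat1 is a long noncoding RNA that stays in the nucleus. These limits kept 1347 of 18635 barcodes of the proton library and 1520 of 19189 of the photon library, which is 2867 of the 37824 barcodes in both and of 72788 in the 5 libraries of the series.

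The cells came from submandibular glands of female C57BL/6 mice aged 8 to 12 weeks, with no allele or transgene named in the labels. Organoids derived from 4 animals were grown in Matrigel, a basement membrane gel, in medium with R-spondin1 and Wnt3a, and living cells that excluded propidium iodide were sorted for droplet-based 3′ sequencing. The control was an unirradiated 7-day mSGO library whose experiment the labels place on the same day, of which 1010 of 7151 barcodes met the same limits. Photons came from a caesium source and protons from an accelerator, with the organoids in the plateau region of the beam, so the radiation type cannot be told apart from the machine, from handling at each site or from the library.

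Ionising radiation breaks DNA. Cells answer through p53, which switches on arrest genes such as Cdkn1a and death genes such as Bbc3, and fragments of damaged DNA can set off interferon signalling. Protons release most of their energy at the end of their path, and in the plateau before it they ionise tissue about as sparsely as photons do. Salivary duct epithelium in culture holds basal cells with Krt5 and Krt14 and luminal cells with Krt8 and Krt19, and a share of it can take on a squamous state with genes of the cornified envelope.

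The members held 8227443 UMIs after protons and 8542245 after photons, with a median of 5417 and 4671.5 UMIs and of 1600 and 1442 genes per barcode. The median mitochondrial share was 1.74% after protons and 1.89% after photons, and the median Malat1 share was 7.47% and 6.89%. The libraries shared 98 deposited barcodes, of which 1 was a member in both. The cells matched the epithelial label. Krt14 stood at 5030 CPM after protons, where CPM is a gene's UMIs scaled to a total of 1e6 per library, and 4881 CPM after photons, while 10 of 16 immune markers had no UMI in either library and the 12 fibroblast and endothelial markers together made 1.94 and 2.34 CPM.

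The comparison asks whether protons and photons leave the same transcriptional trace in organoid cells. The proton and photon libraries were close to each other. For each gene the UMIs of all members were summed and scaled to CPM, and the log2 ratio of CPM + 1, proton over photon, was taken. With 1 library a group no test was possible, and the 95% interval given with a value covers counting error only and not the spread between animals, cultures or libraries. Genes were compared if they held at least 200 UMIs over both libraries and 20 CPM in the higher one, after ribosomal protein genes, Gm models and unnamed models were set aside. For the 4587 genes compared the median log2 ratio was -0.01 with an SD of 0.21 across genes, and 97.9% lay within 0.5 of 0. In all 57 genes (1.24%) passed 1.5-fold in either direction. Of these, 21 (0.458%) were higher after protons and 36 (0.785%) lower, while a ratio above 0 was found for 48.9% of genes and one below 0 for 51.1%. Against the control, which serves both comparisons, 190 genes (4.14%) passed the same fold after protons and 206 (4.49%) after photons. At the edge of the fold, Ifnar2 lay just inside with a log2 ratio of 0.59, and Dnm1l just outside with -0.58.

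**Figure D1:**
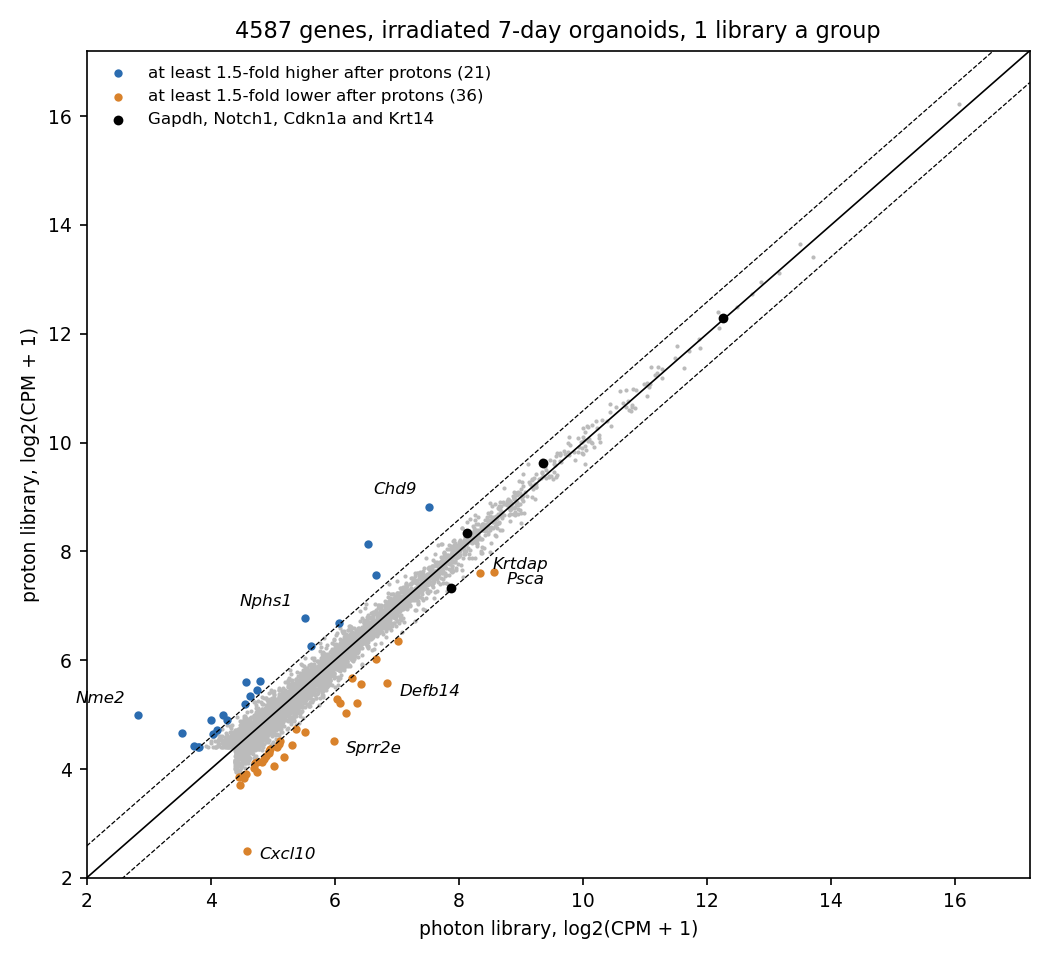
Level of each of 4587 genes in the photon library (x axis) and in the proton library (y axis), both as log2(CPM + 1). The solid line marks equal levels and the dashed lines 1.5-fold, and the black points stand, from low to high, for Gapdh, Notch1, Cdkn1a and Krt14. The 21 genes in blue and the 36 in orange lie outside the dashed lines.

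The genes that were lower after protons included cornified envelope and antimicrobial genes. Sprr2e and Sprr2i encode small proline-rich proteins, which are cross-linked into the cornified envelope of squamous cells. Sprr2e stood at 35 CPM in the control, 62.2 CPM after photons and 22 CPM after protons, a log2 ratio of -1.46 (95% interval -1.75 to -1.25). Sprr2i stood at 24.7, 71.6 and 31.7 CPM in the same order, a log2 ratio of -1.15 (-1.39 to -0.96). For Sprr2e the control thus lay between the irradiated libraries, while for Sprr2i it lay below both.

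The small proline-rich genes of chromosome 3 were mostly lower together, by unequal amounts. Of 12 Sprr genes with at least 20 UMIs, 10 had a ratio below 0, where 56% of all genes with that many UMIs did. The summed level of the 12 was 4558 CPM after protons, 5582 CPM after photons and 4889 CPM in the control. Sprr2d had a log2 ratio of -0.47 and Sprr2f, the most abundant at 3164 CPM after photons, one of -0.27. Sprr1a had -0.26 and Sprr1b -0.03, whereas Sprr3 had 0.96 at only 1.6 and 4.1 CPM. The 250 bases before the start of 3 Sprr2 genes are given from RefSeq (GRCm38.p6), because neighbouring copies with alike promoters differed in size of ratio. Capitals mark every match, on either strand and with overlaps allowed, to 4 motifs. AP-1 was TGANTCA and the TATA box TATAAA. NF-kB was 3 G and 1 A, then any 4 bases, then 2 C. The interferon-stimulated response element (ISRE) was 1 G and 3 A, then any 2 bases, then 1 G and 3 A again.
Sprr2e (chr3:92351893-92352142, plus strand): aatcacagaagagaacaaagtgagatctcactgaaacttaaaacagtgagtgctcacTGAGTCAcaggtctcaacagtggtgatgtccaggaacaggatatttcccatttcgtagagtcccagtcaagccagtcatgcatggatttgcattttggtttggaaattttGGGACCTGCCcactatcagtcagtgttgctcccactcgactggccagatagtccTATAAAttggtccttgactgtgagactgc
Sprr2i (chr3:92407741-92407990, plus strand): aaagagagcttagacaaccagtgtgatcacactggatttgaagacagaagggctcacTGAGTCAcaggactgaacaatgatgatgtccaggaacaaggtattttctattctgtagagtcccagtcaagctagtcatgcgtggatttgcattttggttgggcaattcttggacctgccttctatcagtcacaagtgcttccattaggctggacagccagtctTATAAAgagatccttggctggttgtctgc
Sprr2d (chr3:92338890-92339139, plus strand): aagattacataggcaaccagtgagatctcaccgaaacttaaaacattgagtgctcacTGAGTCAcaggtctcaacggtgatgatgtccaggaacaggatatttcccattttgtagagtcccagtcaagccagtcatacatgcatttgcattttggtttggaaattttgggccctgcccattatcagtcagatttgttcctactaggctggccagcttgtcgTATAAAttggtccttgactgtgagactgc

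The 3 windows carried an AP-1 match at the same place, 193 to 187 bases before the start, and a TATA box 29 to 24 bases before it. Sprr2e, which had the lowest ratio of the 3, held in addition an NF-kB match 83 to 74 bases before the start. Aligned end to end, the Sprr2e and Sprr2i windows were identical at 77.4% of positions. Among 27025 genes with a window, 1 window a gene, 6.87% held the AP-1 letters, 13% the TATA box and 17.3% the NF-kB letters. Of 27 genes at least 1.5-fold lower after protons that had a window, 5 (18.5%) held an AP-1 match, 5 (18.5%) a TATA box, 7 (25.9%) an NF-kB match and 2 (7.41%) an ISRE match. Of 14 higher ones 1, 2, 2 and 0 did, in the same order. Among the 3669 genes compared that had a window the shares were 4.58%, 6.6%, 21.9% and 2.51%. Sprr2e, Sprr2i and Cxcl10 were among the lower genes with an AP-1 match, and Sprr2e, Sprr2i and Cxcl3 among those with a TATA box. The windows of Sprr2e and Sprr2i are alike, so these counts are not all of independent genes. These matches describe letters and not bound sites.

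Few cells carried Sprr2e and Sprr2i, whereas Sprr2f was seen in 1457 photon and 1204 proton barcodes. The 10 richest barcodes of the photon library held 76.8% of its Sprr2e UMIs and those of the proton library 57.5%, and 105 and 63 barcodes had any. For Sprr2i these shares were 74.2% and 52.9%, for Sprr2d 52.8% and 44.9% and for Sprr2f 33.0% and 31.3%. Without each gene's 10 richest barcodes in either library the Sprr2e ratio was -0.58 and the Sprr2i ratio -0.29. Among members with at least 2500 detected genes (243 after photons, 213 after protons) Sprr2e stood at -0.03 and Sprr2i at 1.26. The lower Sprr2e and Sprr2i levels after protons were thus not seen in these barcodes. In sums of this kind, fewer cells of a type and less RNA per cell cannot be told apart.

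Other genes of the cornified layer differed in both directions. Krtdap, a secreted peptide of differentiating keratinocytes, was at 521 CPM in the control, 324 CPM after photons and 193 CPM after protons (-0.74, interval -0.84 to -0.66). Its level was thus below the control in both irradiated libraries. Crct1 had a ratio of -0.34, Krt13 -0.25, Ivl (involucrin) -0.18 and Cnfn 0.00. The proteases Klk10 and Klk14 had ratios of 1.48 and 1.36, but Klk10 was seen in only 12 proton and 15 photon barcodes and Klk14 in 5 and 6. Over the cornification list 19 of 30 genes had a ratio below 0, with a median of -0.17, where 56% of all genes with at least 20 UMIs were below 0 and their median was -0.03. Of these 30, 4 were at least 1.5-fold lower and 3 at least 1.5-fold higher, against 3.03% and 1.23% of all such genes.

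Antimicrobial defence genes had the lowest median of any list with 6 or more genes, -0.54. Of its 12 genes with at least 20 UMIs, 9 had a ratio below 0 and 6 were at least 1.5-fold lower, against 56% and 3.03% of all genes with at least 20 UMIs. Defb14, a beta-defensin, stood at 64.5 CPM in the control, 114 CPM after photons and 46.8 CPM after protons (-1.27, interval -1.46 to -1.11). Lcn2, which binds the iron carriers of bacteria, stood at 28.3, 64.6 and 37.8 CPM (-0.76). Wfdc12, a protease inhibitor of the whey acidic protein family, was at 11.5 CPM after photons and 3.5 CPM after protons, with 98 and 29 UMIs. Slpi, an inhibitor of neutrophil elastase, had a ratio of -0.39, and the calgranulins S100a8 and S100a9 had -0.81 and -0.68. Defb1, which is made without stimulus in many epithelia, went the other way at 431 CPM after photons and 467 CPM after protons (0.12). The list's median was -0.15 among members with at least 2500 genes and -0.12 in barcodes with Malat1 under 1%. In both the sign held but the size did not. The list's transcripts had a median length of 889.5 bases, and over all genes compared the median ratio was -0.74 for the 5 transcripts under 500 bases and -0.10 for the 102 of 500 to 1000 bases. The part of transcript length in the antimicrobial values was not tested.

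Psca and Aldh1a3 were among the most lowered genes with appreciable levels. Psca encodes a surface protein of the Ly6 family. It stood at 51.2 CPM in the control, 380 CPM after photons and 196 CPM after protons, a log2 ratio of -0.95 (-1.04 to -0.87), so both irradiated libraries were above the control and the photon library more so. The 10 richest barcodes held 65.9% of Psca UMIs after photons and 67.2% after protons, and without them the ratio was -1.0. Among members with at least 2500 genes it was 0.11. Aldh1a3, which makes retinoic acid, stood at 26.2, 80.8 and 36.1 CPM (-1.14), and its ratio was -1.16 among members with at least 2500 genes.

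Interferon-stimulated genes were above the control in both irradiated libraries, and a few of them were lower after protons than after photons. Of 24 genes used, 23 were above the control after protons and 24 after photons, with a median of 1.16 and 1.35. Over all genes compared the median ratios to the control were 0.05 after protons and 0.06 after photons. The share of all genes above the control was not computed. Cxcl10, a chemokine that draws T cells, had the lowest ratio of all genes compared. It was at 0.44 CPM in the control, 22.9 CPM after photons and 4.6 CPM after protons, a log2 ratio of -2.09 (-2.85 to -1.81). In each library the 10 richest barcodes held over 90% of its UMIs, 94.4% after photons and 92.1% after protons, with 21 and 13 barcodes positive. Its ratio was -0.82 with a Malat1 minimum of 2% and -0.89 with none, and under both it was no longer the lowest, since Sprr2e had -1.48 under the former and Defb14 -1.22 under the latter. The Cxcl10 ratio was -4.31 among members with at least 2500 genes, -3.20 with doublets removed and -0.93 after each barcode was thinned to 1000 UMIs. Without the gene's 10 richest barcodes it was -0.75. The 1 CPM added to both levels draws this value towards 0 at the few UMIs left.

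The Cxcl10 promoter is shown because this gene had the lowest ratio. RefSeq places the 250 bases before its start on GRCm38.p6, with capitals as for the Sprr2 genes.
Cxcl10 (chr5:92348890-92349139, minus strand): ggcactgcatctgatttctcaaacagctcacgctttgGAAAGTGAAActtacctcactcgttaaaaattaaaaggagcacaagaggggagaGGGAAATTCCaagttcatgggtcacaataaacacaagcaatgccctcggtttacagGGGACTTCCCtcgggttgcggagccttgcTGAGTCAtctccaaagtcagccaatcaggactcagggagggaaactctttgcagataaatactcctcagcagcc

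It held an ISRE match 213 to 204 bases before the start, NF-kB matches at 159 to 150 and at 103 to 94, and an AP-1 match at 74 to 68. An ISRE match was found in 3.04% of the 27025 windows.

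The remaining interferon genes gave mixed ratios. Ifit3 had a ratio of -1.69 (10.1 CPM after photons, 2.4 CPM after protons) and Rsad2 one of -1.08 (11.1 and 4.7 CPM), and for both over 80% of the photon UMIs came from 10 barcodes. Of the 6 genes at least 1.5-fold lower, Cxcl10, Ifit3, Rsad2, Ifi44, Zbp1 and Usp18, none but Cxcl10 reached 20 CPM. The more widely detected Ifi27, Bst2 and Ifi35 had ratios of -0.02, 0.05 and 0.02, and Ifit1 -0.02. Isg15, a ubiquitin-like modifier, was slightly higher after protons at 59.1 CPM against 48.8 CPM (0.27, interval 0.08 to 0.47), with 12.5 CPM in the control. Over the list 17 of 24 genes were below 0 and 6 at least 1.5-fold lower, against 56% and 3.03% of all genes with at least 20 UMIs, and the median was -0.10. This direction did not hold throughout. The list's median was 0.04 in barcodes with Malat1 under 1% and 0.06 after each barcode was thinned to 1000 UMIs. Within the clusters of members described further on it was 0.11 in cluster 1 and 0.09 in cluster 3, and -1.66 over the 8 genes used in cluster 5. Among chemokines, Cxcl3, which draws neutrophils, was lower after protons (44.6 CPM after photons, 24.6 CPM after protons, -0.84), while its neighbours Cxcl1 and Cxcl2 had ratios of 0.04 and 0.06. The cytokine list had a median of -0.02, and its lowest member was Ereg, a ligand of the EGF receptor (-0.69).

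The genes highest after protons were of mixed function. Nme2, a nucleoside diphosphate kinase, stood at 3.1 CPM in the control, 6.1 CPM after photons and 30.8 CPM after protons, a log2 ratio of 2.16. Chd9, a chromatin remodeller, stood at 100, 182 and 450 CPM (1.30, interval 1.22 to 1.39). Nphs1, which encodes nephrin, a protein known from the filtration slit of the kidney, stood at 22.7, 44.7 and 108 CPM (1.26). For all 3 the control was below both irradiated libraries, and none had 33.3% or more of either library's UMIs in 10 barcodes. Chd9 was spread over many barcodes, with 833 photon and 1066 proton members positive, whereas Nme2 had few UMIs.

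**Figure D2:**
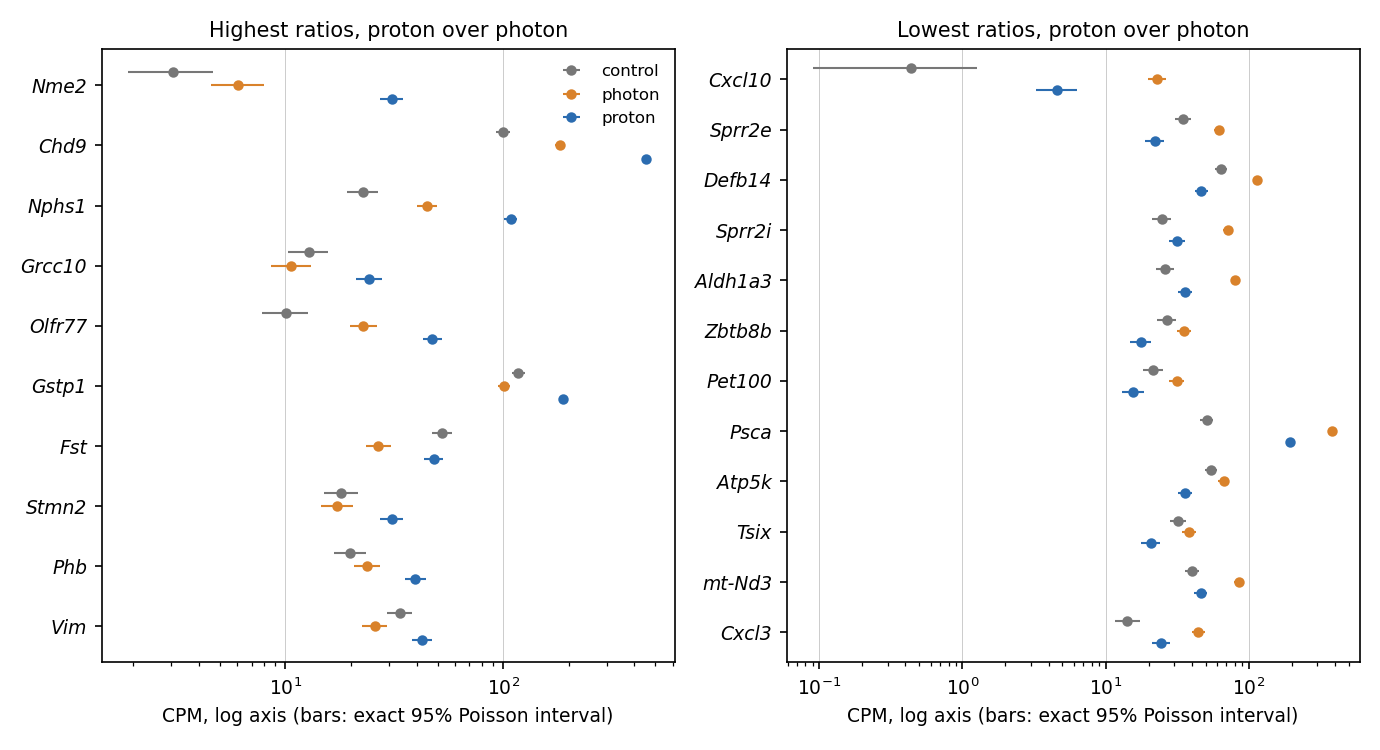
CPM on a log axis of 10 of the 12 genes with the highest (left) and of the 12 with the lowest (right) ratio of protons over photons, in the control (grey), photon (orange) and proton (blue) libraries, with exact 95% Poisson intervals. The control lies below both irradiated libraries for Nme2, Chd9 and Nphs1, and also for Cxcl10 and Psca.

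Another 7 of the 12 highest had smaller ratios. Gstp1, a glutathione transferase, stood at 117 CPM in the control, 101 CPM after photons and 189 CPM after protons (0.90). Fst (follistatin, an activin binder) was at 52.5, 26.7 and 48.0 CPM (0.82) and Vim (vimentin, an intermediate filament) at 33.4, 25.8 and 42.5 CPM (0.70). For Gstp1 and Vim the control lay between photons and protons, whereas for Fst it lay above both. Grcc10 had a ratio of 1.12, the olfactory receptor gene Olfr77 1.02, Stmn2 0.79 and Phb (prohibitin) 0.71. Without the 10 richest barcodes of each library the Fst ratio was 0.25 and the Vim ratio 0.63.

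Some of these genes have near-identical copies elsewhere in the genome, and how far reads of the copies can be told apart from theirs was not tested. The last 400 bases of each gene's longest transcript were aligned to the genome. A copy was a match outside the gene's own locus of at least 150 bases at 95% identity or more. Nme2 had 3 such copies, Gstp1 2 and Phb 1, while Chd9, Nphs1, Grcc10, Olfr77, Fst, Stmn2 and Vim had none. Among the lowest genes Atp5k and mt-Nd3 had 1 each. A copy was found for 4 of the 21 genes that were higher (19.0%), for 2 of 35 that were lower (5.71%) and for 365 of 4582 genes compared (7.97%). The values of Nme2, Gstp1 and Phb are therefore uncertain in their assignment to a gene. Several of the named genes also overlap another annotated gene, among them Tsix with Xist, Cxcl10 with Art3, Pet100 with Pcp2 and Lig3 with Rffl, and no source used here states how strand was used in counting.

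The lowered genes outside the squamous and immune groups were of mixed function. Pet100 and Atp5k, which serve the respiratory chain, had ratios of -0.96 and -0.87. The mitochondrial gene mt-Nd3, a subunit of complex I, stood at 40.2 CPM in the control, 85.0 CPM after photons and 46.2 CPM after protons (-0.87). Zbtb8b had a ratio of -0.96 and Tsix, the antisense transcript of Xist, one of -0.87, while Xist itself had -0.04. Gapdh, a glycolytic enzyme often used as a reference gene, was at 269, 234 and 159 CPM (-0.56, interval -0.66 to -0.46). Its level was lower in every cluster described further on, by -0.74 to -0.48.

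The p53 targets were slightly higher after protons. Cdkn1a, which arrests the cell cycle, was at 582 CPM in the control, 657 CPM after photons and 786 CPM after protons, a log2 ratio of 0.26 (0.21 to 0.31). The ratio was 0.15 with the clusters described further on weighted equally in both libraries, and 0.03 in barcodes with Malat1 under 1%. Mdm2, which degrades p53, was at 58.3, 87.0 and 90.2 CPM (0.05, interval -0.10 to 0.20). Against the control Mdm2 thus had a ratio of 0.57 after photons and 0.62 after protons, and Cdkn1a 0.18 and 0.43. Bbc3, which encodes the death inducer Puma, had a ratio of 0.37 and Btg2, an antiproliferative gene, 0.32. Bax, another death gene, had -0.08, and Fdxr -0.34 at 6.1 and 4.6 CPM. Of 29 targets, 21 had a ratio above 0 where 44% of genes with at least 20 UMIs did, with a median of 0.11 and none past 1.5-fold. The range of this median under 15 other settings was 0.08 to 0.12.

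DNA repair and replication genes were on balance slightly lower after protons, at low counts. Of 36 genes of damage signalling and repair, 27 had a ratio below 0, with a median of -0.15, and 3 were at least 1.5-fold lower, where 56% and 3.03% of genes with at least 20 UMIs were. The lowest was Mdc1, a scaffold at broken DNA (-0.63 at 3.7 and 2.1 CPM). Lig3, a DNA ligase, was at 17.4 CPM after photons and 11.1 CPM after protons (-0.61), and Rad50, of the complex that senses broken ends, at 56.8 and 48.0 CPM (-0.24). Msh6, a mismatch repair gene, had a ratio of 0.12. Of 24 S phase genes, 20 were below 0, against the same 56%, with a median of -0.25. Mcm2, Mcm3, Mcm4 and Mcm6, subunits of the replicative helicase, had ratios of -0.64, -0.50, -0.33 and -0.50, whereas Mcm7 had 0.22. In the barcodes with Malat1 under 1% the medians of these lists were -0.02 and 0.03, so the lower level was not seen there.

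Mitotic genes were near equal in the irradiated libraries and well below the control. All 26 were below the control in both, with a median ratio of -1.03 after protons and -0.91 after photons. The medians over all genes compared were 0.05 and 0.06, and the share of all genes below the control was not computed. Between protons and photons 13 were higher and 13 lower, where 44% and 56% of genes with at least 20 UMIs were, with a median of 0.01. Mki67 was at 35.3 CPM in the control, 9.0 CPM after photons and 9.7 CPM after protons (0.10, interval -0.36 to 0.58), and Top2a, a topoisomerase, at 65.0, 27.5 and 26.9 CPM (-0.03). Differences smaller than these intervals were not detectable at this depth. Cenpa, the centromere histone, had a ratio of 0.31 and Plk1, a mitotic kinase, -0.62 at 5.0 and 2.9 CPM.

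The Notch pathway, in which ligands such as Jag1 on a neighbouring cell activate receptors and through Rbpj the Hes genes, had ratios near 0 on balance among members. The receptor Notch1 was at 185 CPM in the control, 278 CPM after photons and 323 CPM after protons (0.21, interval 0.14 to 0.30), so both irradiated libraries were above the control. The ligands Jag1 (67.1, 83.2 and 84.5 CPM) and Jag2 (74.8, 75.4 and 81.4 CPM) had ratios of 0.02 and 0.11 between protons and photons. The target Hes1 was at 54.6 CPM in the control and about equal after photons and protons, at 109.5 and 108.9 CPM (-0.01, interval -0.14 to 0.13). Of 24 genes used, 14 were above 0 (44% of genes with at least 20 UMIs were) and the median was 0.03. In the barcodes with Malat1 under 1% the median was 0.18, with Jag1 at 0.36 and Hes1 at 0.26, so the ratios near 0 were not seen there. The largest ratio, 1.06 for Hey1, rested on 1.1 and 3.3 CPM, and Lfng, which adds sugars to Notch, had -0.47 on 32 and 20 UMIs.

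Genes named for salivary stem and progenitor cells moved by small amounts. Sox9 was at 113 CPM in the control, 197 CPM after photons and 195 CPM after protons (-0.01). Hmga2, a chromatin protein of immature cells, was at 150, 264 and 201 CPM (-0.39, interval -0.48 to -0.30). Itgb1, an integrin, was at 376, 450 and 377 CPM (-0.25), so that after protons it stood at the level of the control. Cd24a had a ratio of 0.19, Cd164 -0.17, Cd44 -0.09 and Itgb4 -0.08. Of 18 genes of adhesion to the basement membrane, 16 had a ratio below 0, where 56% of genes with at least 20 UMIs did. Their median was -0.09 against -0.03 for all such genes, and 0.00 both without a Malat1 minimum and in the barcodes with Malat1 under 1%.

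Luminal duct markers were slightly higher after protons, while keratins gave mixed ratios. Krt16, which wounded epithelium makes, was at 185 CPM in the control, 266 CPM after photons and 184 CPM after protons (-0.54, interval -0.63 to -0.44). Its ratio was -0.06 among members with at least 2500 genes and -0.29 without its 10 richest barcodes in each library. Krt6b had a ratio of -0.43, Krt6a -0.19 and Krt5 -0.17, while Krt14 had 0.04 and Krt17, another keratin of wounded epithelium, 0.09. Of 7 basal and stress keratins 5 had a ratio below 0, where 56% of genes with at least 20 UMIs did. Of 12 luminal duct markers, 11 were higher after protons, where 44% of genes with at least 20 UMIs were, with a median of 0.17. Krt19 (0.44), the tight junction gene Cldn4 (0.35) and the transcription factors Klf5 (0.31) and Elf3 (0.26) led them, and Krt8 had 0.14.

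Energy metabolism differed by list. Of 24 hypoxia and glycolysis genes, 20 were higher after protons, where 44% of genes with at least 20 UMIs were, with a median of 0.16. Adm, a peptide hormone raised by hypoxia, was at 79.9 CPM in the control, 48.1 CPM after photons and 75.5 CPM after protons (0.64, interval 0.47 to 0.83), a ratio above that in any single cluster described further on. The enzymes Pgk1 (0.27), Pkm (0.26) and Tpi1 (0.30) and the stress gene Ndrg1 (0.41) were in the same direction, with Gapdh the exception. For all of these the photon level was below that of the control.

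Genes of the respiratory chain that the nucleus encodes were slightly lower after protons in 55 of 72 cases, with a median of -0.11, where 56% of genes with at least 20 UMIs were below 0. At least 1.5-fold lower were 2 of the 72, a share no higher than the 3.03% of all such genes. Complex IV had a median of -0.20 (8 of 10 lower), complex I -0.12 (30 of 35), complex V -0.09 (10 of 15), complex III -0.06 (5 of 8) and complex II 0.01 (2 of 4). Ndufa3 of complex I was at 101 CPM after photons and 64.2 CPM after protons (-0.64), and Cox4i1 of complex IV went the other way at 1271 and 1370 CPM (0.11). Shorter transcripts had lower ratios. The 10 respiratory genes under 1000 bases had a median of -0.33 and the other 62 one of -0.09. Over all genes compared the medians were -0.10 for the 107 under 1000 bases and 0.00 for the 4475 longer ones, and the part of transcript length in the respiratory values was not tested.

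Immediate early and stress genes gave small and mixed ratios. The AP-1 subunits Junb (0.40), Jund (0.41) and Fosl2 (0.51) were higher after protons, Fos was at -0.06, and the zinc finger factors Egr1 (35.1 and 26.5 CPM) and Egr3 (15 and 6 UMIs) had -0.39 and -0.67. The median of 22 genes was 0.07. Among 25 antioxidant and iron genes 16 were lower, where 56% of genes with at least 20 UMIs were, so the share was near that background. Their median was -0.09, and the lowest included Srxn1 (-0.65) and the ferritin chain Ftl1 (-0.41). The median of the 23 heat shock genes was 0.03. Of 25 chromatin remodellers Chd9 was the highest at 1.30, the next highest was Arid1b at 0.61, and the other Chd genes lay between -0.37 and 0.17.

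**Figure D3:**
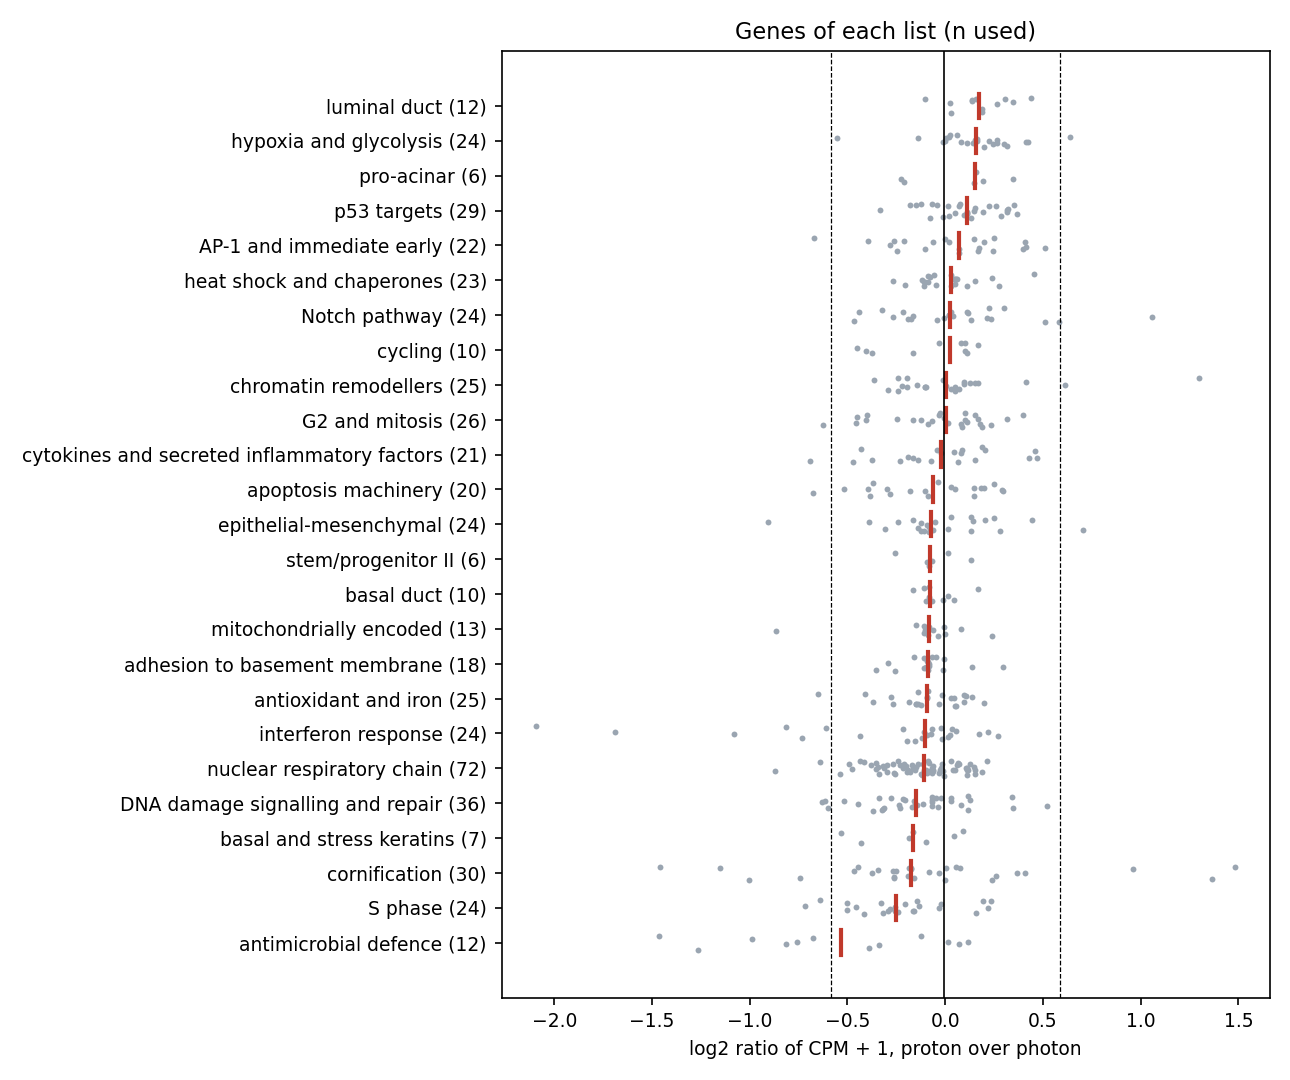
Log2 ratio of CPM + 1, proton over photon, of every list member with at least 20 UMIs (grey points), for lists with 6 or more such genes (number in brackets). Red bars mark list medians, the solid line the median of all genes compared and the dashed lines 1.5-fold. Antimicrobial defence has the lowest median, -0.54, and luminal duct the highest, 0.17.

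The members were then clustered together without the 77 genes past 1.5-fold, set-aside genes included, and 5 clusters were found. Cluster 1, led by Prss23, Col11a1 and Sostdc1, held 39.6% of photon and 34.1% of proton members. Cluster 2, led by Adm, Nr1d1 and Arhgap29, held 26.1% (95% Clopper-Pearson interval 23.9% to 28.4%) and 34.7% (32.2% to 37.4%). Cluster 3, led by Sprr1a, Sprr2e and Sprr2d, held 15.7% (13.9% to 17.7%) and 16% (14.1% to 18.1%). Cluster 4, led by Slc39a1 and Cxcl2, with few UMIs per barcode (median 2255.5 and 2938), held 15.5% and 10.8%. Cluster 5, with Cenpf, Hmmr and Mki67, was cycling-like and held 3.03% and 4.38%. Clusters 1 to 4 were left without a cell type name, since none had 3 markers of a cell type at least 2-fold up with 1 of them among its 10 leading genes. With the genes past 1.5-fold kept, the cluster led by Adm held 22.2% and 30.6%.

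The cornification and antimicrobial lists had their highest summed levels in cluster 3. There the antimicrobial list had a median of -0.71, with 2 of 12 genes higher after protons, against medians of -0.28 to 0.00 in the other clusters. The cornification list had a median of -0.22 in cluster 3, with 8 of 26 genes higher, and of -0.38 to -0.24 in the others, so its ratios were no lower there. In cluster 3 Sprr2e stood at 262 CPM after photons and 90.5 CPM after protons (-1.52), Psca at 1418 and 717 CPM (-0.98) and Defb14 at 408 and 170 CPM (-1.26). Cxcl3 was lower in cluster 3 (-1.51) and not in clusters 1 and 2 (0.25 and 0.32). Aldh1a3, Sprr2e, Psca and Defb14 were lower in all 5 clusters. Cxcl10 differed in direction between clusters, with 120 photon UMIs and 0 proton UMIs in cluster 5 and 9 and 25 in cluster 4.

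Nme2, Chd9 and Nphs1 were higher after protons in every cluster. Chd9 had ratios of 1.08 to 1.43, Nphs1 of 1.11 to 1.63 and Nme2 of 1.78 to 3.46, the last from low counts. In contrast Fst was higher in clusters 1 and 3 (1.26 and 1.27) and not in cluster 2 (-0.09), and Vim was higher in cluster 1 (0.89) and not in cluster 2 (-0.04). Cdkn1a was higher after protons in 4 of 5 clusters, with ratios of 0.18 in cluster 1 (0.08 to 0.29) and 0.38 in cluster 3 (0.29 to 0.47), and stood at -0.05 in cluster 2 (-0.14 to 0.04). Adm had a ratio of 0.59 in cluster 2 and 0.47 in cluster 3, but -0.04 in cluster 1 and -0.43 in cluster 4, and 0.41 with the clusters weighted equally in both libraries. Notch1 was higher in all 5, by 0.05 to 0.54.

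**Figure D4:**
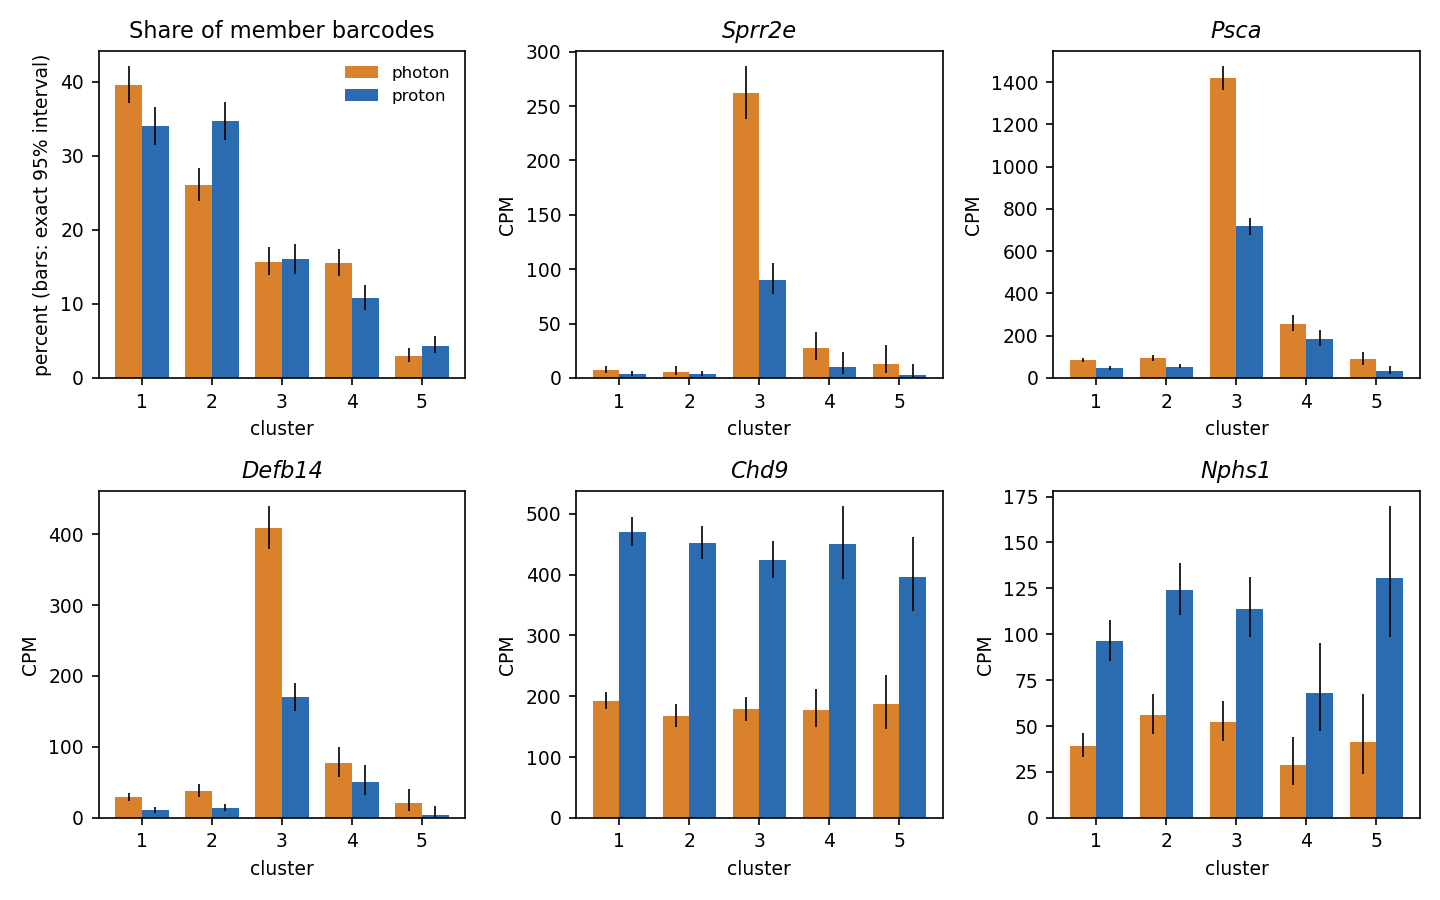
Share of member barcodes in each cluster (first panel, with exact 95% intervals) and CPM within each cluster of Sprr2e, Psca, Defb14, Chd9 and Nphs1 (exact 95% Poisson intervals), after photons (orange) and protons (blue). Sprr2e, Psca and Defb14 are concentrated in cluster 3, whereas Chd9 and Nphs1 are higher after protons to a similar degree in all 5 clusters.

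The same libraries hold many barcodes with at least 1000 UMIs but a Malat1 share under 1%, 6983 after protons and 9674 after photons, which the limits leave out. They come from the same 2 libraries, so they are not replicates. Of the 21 genes higher among members 20 had the same direction in these barcodes and 8 were past 1.5-fold, and of the 36 lower 35 and 11 did so. Of all genes compared, 0.937% were past 1.5-fold in either direction in these barcodes. The share of all genes compared with the same direction in both sets of barcodes was not computed, so the agreement in direction has no background beside it. Nme2 (2.65), Chd9 (1.68), Grcc10 (1.44) and Nphs1 (1.20) had ratios close to or above those in the members. Defb14 had -1.17, Sprr2i -0.82, Sprr2e -0.70 and Psca -0.41. Cxcl10 stood at 10.0 CPM after photons and 9.5 CPM after protons there (-0.07), and the ratios of Fst (0.10), Vim (0.11) and Adm (0.02) were near 0 as well.

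**Figure D5:**
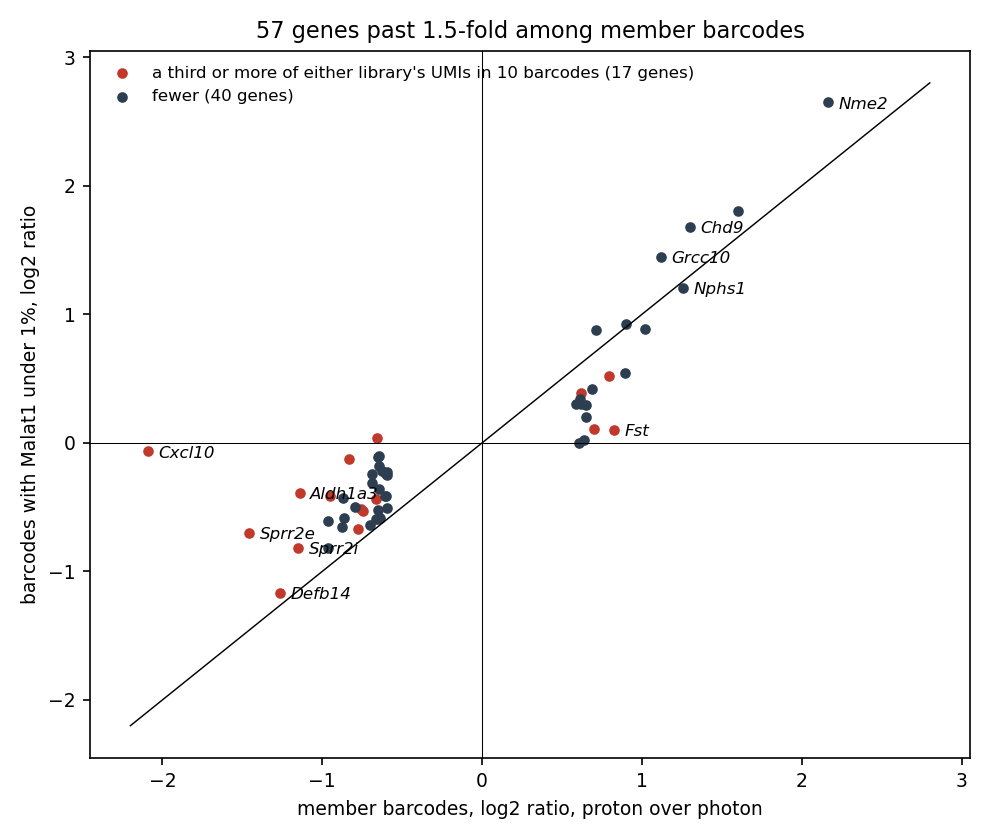
Log2 ratio of proton over photon of the 57 genes past 1.5-fold, among members (x axis) and among barcodes with Malat1 under 1% (y axis), with the line of equality. Red points are the 17 genes with at least 33.3% of the UMIs of either library in 10 barcodes. Nme2 and Chd9 lie above the line, and Cxcl10 lies near 0 on the y axis.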

How the data were processed

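Members and gene lists were chosen with earlier results of these data known. For each library the authors deposited whole-number UMI counts per gene and barcode, and other matrices of the series were not used. The submitters' notes name Cell Ranger 5 and mm10, the file headers software 3.0.1 and the study's methods GRCm39. Single-cell 3′ libraries were read with Python 3.11.15 and scanpy 1.11.5. UMIs were summed over members and scaled to CPM, and a pseudocount of 1 CPM was added before taking log2 ratios. Intervals are exact 95% Poisson intervals for CPM and conditional binomial intervals of the UMI ratio, without the pseudocount, for ratios. They cover counting error only. No replicates exist, so no test was run.

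Genes named are those the study names, the 12 highest and 12 lowest ratios, the highest and lowest of each list with at least 50 UMIs, Cdkn1a and Mdm2. Some of these genes are not reported here. Others named were picked after their values were seen. The 30 lists used genes with at least 20 UMIs over both libraries. Clustering used 2000 variable genes, 30 components, 15 neighbours and Leiden (leidenalg 0.10.2) at a resolution of 0.5. Doublets stayed in, and removal with Scrublet was an alternative, as were other limits on barcodes, genes and scaling. Copies of the ends of GENCODE vM39 transcripts were searched in the mouse genome with minimap2 2.31-r1302. Promoters are RefSeq, GRCm38.p6, 1 window a gene. The script was tested on simulated data.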

Additional observations from a re-analysis of the deposited data

Results flagged for a closer look

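Of the genes named by rule, 8 had 95% counting intervals on opposite sides of the shared control after photons and after protons. The difference was not tested, since each condition is 1 library. All 8 were among the 12 highest or 12 lowest ratios of protons over photons, a choice that favours this pattern. Of all genes past 1.5-fold, the control level lay between photons and protons for 9 of the 21 higher and 21 of the 36 lower. Log2 ratios are of CPM + 1 over the control. Sprr2e stood at 0.81 after photons and -0.65 after protons, and Defb14, a beta-defensin, at 0.81 and -0.46. Zbtb8b stood at 0.39 after photons and -0.57 after protons. The respiratory genes Pet100 and Atp5k stood at 0.53 and 0.29 after photons and at -0.43 and -0.58 after protons. Tsix, antisense to Xist, stood at 0.25 and -0.62. In the other direction, Vim stood at -0.36 after photons and 0.34 after protons, and the glutathione transferase Gstp1 at -0.21 and 0.68.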

How the results depend on the processing

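Under 15 other ways of choosing barcodes, genes or scaling, 32 of 34 named genes past 1.5-fold kept 1 sign throughout, as did 14 of 30 list medians. The exceptions were Sprr2i and Psca, at 1.26 and 0.11 among barcodes with at least 2500 detected genes. Without the 10 richest barcodes of each gene, an alternative chosen after seeing the data, Klk10 stood at -0.35. The count of genes at least 1.5-fold higher was 8 after each barcode was thinned to 1000 UMIs (1634 genes compared) and 71 with a minimum of 50 UMIs and no CPM minimum (8838 genes compared). The count of lower genes was 17 without a Malat1 minimum, 21 with at least 2500 detected genes, 11 after thinning, 59 when ribosomal, mitochondrial, Malat1 and set-aside genes were left out of the scaling and 178 with the minimum of 50 UMIs. Against 4587 genes in the report, 3256 were compared with the 2500-gene limit, 4196 without a Malat1 minimum and 5774 with the other scaling. The part of these numbers in the changed counts was not tested. No paired analysis was possible because each group holds 1 library, and leaving out a replicate was not possible for the same reason. Counting error at these depths leaves genes of a few CPM with wide intervals, and the spread between animals or cultures is unknown.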
